A study of Mus musculus with 6 samples.

Results

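A set of 40 genes of the chaperone network and of the unfolded protein response (UPR) was followed in the distal colon of Gm31629-/- and WT mice with colitis. Members were chosen by symbol, and each of the 40 was found among the 27546 genes listed with an FPKM value (fragments per kilobase of exon, scaled to the mapped fragments of the library, a level that allows for gene length). By role, 28 of them act in or report on the endoplasmic reticulum (ER), 10 are chaperones, cochaperones or the heat shock factor of the cytosol, and 2 form the mitochondrial chaperonin. RNA came from the distal colon of 3 knockout (Gm31629-/-) mice and 3 WT littermates, all C57BL/6 and 8 weeks old. All 6 mice had drunk 3% dextran sulfate sodium (DSS), a polymer that injures the colonic epithelium, for 7 days and were killed on day 8, so no untreated animal enters any comparison. The knockout removes a stretch of the lncRNA gene Gm31629 on chromosome 1 in every cell, and Gm31629 itself is not among the listed symbols, so its level was not analysed here. Each library carries the label of its own mouse, although the methods speak of pooled RNA, and p-values measure the spread between these libraries.

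Proteins that enter the ER are folded by the Hsp70 chaperone BiP with its J-domain partners and Grp94, by lectin chaperones that hold glycoproteins, and by disulfide isomerases. When unfolded protein builds up, the sensors IRE1, PERK and ATF6 start the UPR, which raises chaperones and degradation factors through spliced XBP1 and cleaved ATF6 and slows translation while inducing ATF4 and CHOP through PERK. In the cytosol, the factor HSF1 induces Hsp70, Hsp90 and their partners after heat or proteotoxic stress. Goblet cells and plasma cells of the gut secrete large amounts of protein and rely on these systems, and goblet cells carry a further IRE1 gene, Ern2.

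Control elements of these pathways can lie close to gene starts, and the stretches that match their motifs exactly are shown. The search does not sort UPR targets from other members, since a target may lack an exact match or a window. The 250 bases before each gene start (RefSeq, GRCm38.p6) were searched on both strands, and a window was found for 32 of the 40 genes, the exceptions being Hsp90aa1, Hsp90ab1, Hspa8, Hsf1, Hyou1, Manf, Ern2 and Atf6. Below, capitals mark the match and lower case the 5 bases on either side, each written 5′ to 3′ on the strand that reads as the motif. The ER stress response element (CCAAT and CCACG with 9 bases of any kind between them) was present in the following genes.
Hspa5, chr2:34772020-34772048 (+): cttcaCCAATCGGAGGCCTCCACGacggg
Hsp90b1, chr10:86705633-86705661 (-): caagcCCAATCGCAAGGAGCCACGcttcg
Hsp90b1, chr10:86705528-86705556 (+): actcaCCAATCGTGCCTCACCACGcactc
Dnajc3, chr14:118937822-118937850 (+): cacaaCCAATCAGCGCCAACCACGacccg
Creld2, chr15:88819515-88819543 (-): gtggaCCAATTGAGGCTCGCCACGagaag
Calr, chr8:84847070-84847098 (+): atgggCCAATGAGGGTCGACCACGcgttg
Canx, chr11:50325795-50325823 (-): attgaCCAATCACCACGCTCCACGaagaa
Pdia6, chr12:17266486-17266514 (+): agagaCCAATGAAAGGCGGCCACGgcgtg
Syvn1, chr19:6046527-6046555 (+): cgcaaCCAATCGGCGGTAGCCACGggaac
The shorter form of the element (ATTGG and CCACG with 1 base of any kind between them, sharing CCACG with the form above) was found in Herpud1, and a heat shock element of alternating TTC and GAA blocks was found in the window shared by Hspd1 and Hspe1, which start head to head.
Herpud1, chr8:94386372-94386392 (+): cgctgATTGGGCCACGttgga
Hspd1-Hspe1, chr1:55088054-55088081 (+): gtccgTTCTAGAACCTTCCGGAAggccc

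The element with the longer gap was thus held by 8 of 24 ER genes with a window (33.3%) and by 35 of 27025 windows of all genes (0.13%). The shorter form was held by 1 of the 24 (4.17%) and by 10 of all windows (0.037%). The heat shock element was held by both mitochondrial genes, by 0 of 6 cytosolic genes with a window and by 139 of all windows (0.514%). The C/EBP-ATF element (TGATG, any base, then AA) was held by 1 of the 24 ER genes, again Herpud1 (4.17%), which is close to its share of all windows (3.91%). The core of the UPR element (TGACG directly followed by TGG) was held by 0 members and by 163 of all windows (0.603%). These matches describe letters within one window and say nothing of whether a factor was bound.

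The libraries were of like depth, 18006000 to 18795100 mapped fragments as recovered from the FPKM values, but they differed widely in makeup. Markers of colon epithelium summed to 8236 to 9757 FPKM in Gm31629-/- mice and 13270 to 14498 FPKM in WT mice, with 8 of 15 lower and 0 higher by limma (9 and 1 at an unadjusted p under 0.05, and 9 and 1 by limma with voom). Their most abundant gene, Krt8, stood at 2042 ± 353 FPKM (SD) and 4198 ± 137 FPKM. In Gm31629-/- mice, all 11 tested markers of smooth muscle (1176 to 1812 FPKM against 21.8 to 38.4), 11 of 12 of enteric neurons and glia (57.7 to 204 against 2.85 to 5.43), all 10 of fibroblasts (225 to 645 against 19.8 to 41.2), all 8 of neutrophils (516 to 1038 against 72.2 to 130), all 8 of macrophages (326 to 666 against 31.5 to 39.0) and 7 of 8 of plasma cells (288 to 487 against 118 to 133) were higher. Goblet cell markers summed to 12337 to 17644 FPKM against 4387 to 5462, with 4 of 10 higher and 2 lower. Each of these marker counts is to be read against all 14657 tested genes, of which 28.9% were higher and 14.6% lower. In bulk tissue, fewer cells of a type and less RNA per cell cannot be told apart, and the part of these shifts in the differences described here was not tested. The library of Gm31629-/- mouse 3 also held pancreatic acinar transcripts (10 markers summed to 2683 FPKM, against 51.3 to 65.5 FPKM in the other 5 libraries). Gm31629-/- mouse 1 was the only library with transcripts of the Y chromosome and the only one without Xist (0.006 FPKM), although the methods name male mice.

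Across the 40 genes, all of which passed the filter of a mean of 0.5 FPKM, 8 passed limma's test at an adjusted p under 0.05 as higher in the knockout, against 28.9% of the 14657 genes tested, and 3 were lower, against 14.6%. The 8 were Hsp90aa1, Dnajb9, Ppp1r15a, Ddit3, Hspa1a, Dnaja1, Herpud1 and Dnajc3, and the 3 were P4hb, Hspd1 and Ern2. With a log2 fold change above 1 also required, 5 were called higher (background 18.4%), and P4hb was the 1 called lower (background 4.64%). The values of both groups did not overlap for 8 higher genes, against 36.3% of all genes, and for 2 lower genes, against 21.5%, while 30 overlapped. In both directions the share of members past the test lay below that of all genes. The median log2 fold change was 0.04 over the 40 genes and 0.15 over all genes tested. It was 0.001 for the ER genes, of which 14 lay above 0 and 14 below, and 0.25 for the cytosolic genes.

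**Figure D1:**
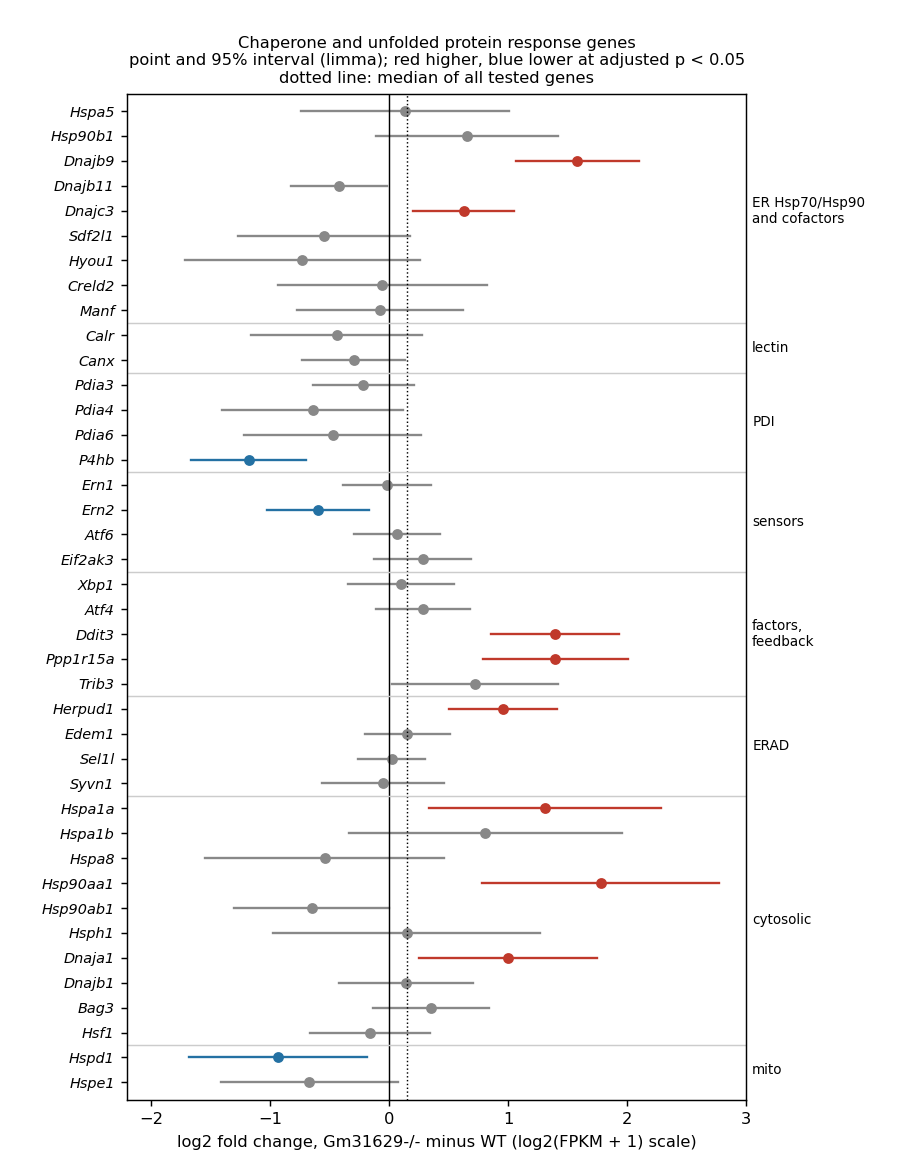
Log2 fold change (Gm31629-/- minus WT, log2(FPKM + 1) scale) of each of the 40 genes, grouped by role, with points at the limma estimate and bars for its 95% interval. The 8 genes in red were higher and the 3 in blue lower at an adjusted p under 0.05, and the dotted line marks the median of all tested genes, 0.15.

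These counts depend on how libraries with such different makeup are put on 1 scale. Rescaling each library by its median ratio moved the median of all genes from 0.15 to −0.05 and the calls over all genes from 4238 higher and 2138 lower to 3613 and 3634, and gave 5 members higher and 6 lower. Rescaling to the epithelial markers moved that median to 0.69 and the calls to 7814 higher and 414 lower, and gave 20 members higher and 0 lower by limma. Every value given below with epithelial scaling is to be read against this shift of all genes. Dnajb9, Ddit3, Ppp1r15a, Herpud1 and Hsp90aa1 passed as higher under these 2 scalings as well as on the deposited values. P4hb, Hspd1 and Ern2 passed as lower as deposited and by median ratio, whereas with epithelial scaling their log2 fold changes were −0.47, −0.24 and 0.08 with adjusted p of 0.119, 0.581 and 0.738, so Ern2 turned in sign. With that scaling 16 of the 19 members below 0 as deposited lay above it (Hyou1, P4hb and Hspd1 did not), and 12 further members passed as higher (Hsp90b1, Ern1, Atf6, Eif2ak3, Xbp1, Atf4, Trib3, Edem1, Sel1l, Hspa1b, Dnajb1 and Bag3).

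**Figure D2:**
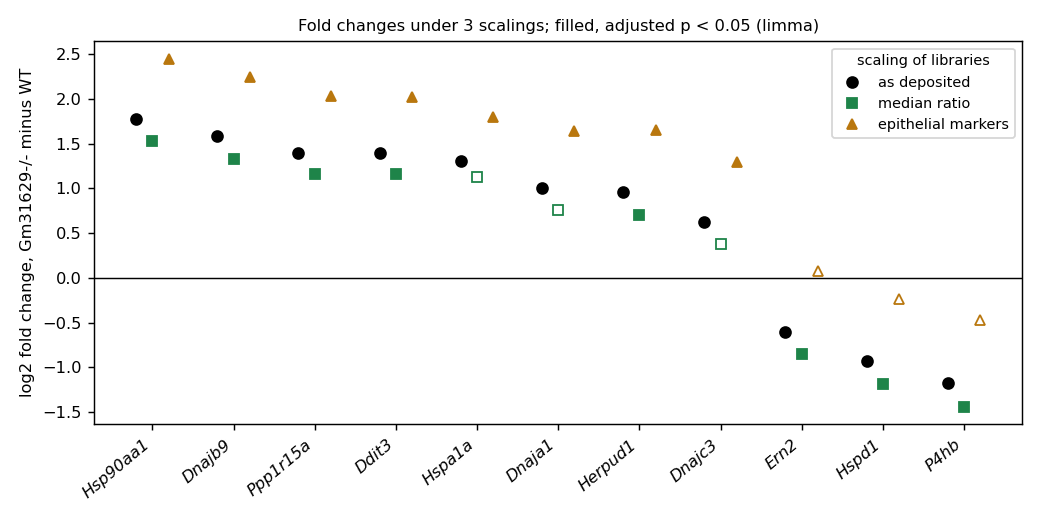
Log2 fold change (Gm31629-/- minus WT) of the 11 genes past the test, with the libraries as deposited (black circles), rescaled by median ratio (green squares) or rescaled to epithelial markers (orange triangles), filled where the adjusted p was under 0.05. The first 8 genes stay above 0 under these 3 scalings, and Ern2 is at −0.60, −0.85 and 0.08.

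The members also moved together from mouse to mouse within a genotype. Gm31629-/- mouse 1 had the lowest value of its group for 31 of the 40 genes (77.5%, against 31.9% of all tested genes), and Gm31629-/- mouse 2 the highest for 26 (65.0% against 44.0%), including 10 of 10 cytosolic genes. Among WT mice, mouse 1 was highest for 28 genes (70.0% against 28.0%) and mouse 2 lowest for 25 (62.5% against 32.6%). The 28 ER genes summed to 1375.6, 1879.0 and 1944.3 FPKM in Gm31629-/- mice 1 to 3 and to 2269.5, 1690.8 and 2100.4 FPKM in WT mice 1 to 3, and the cytosolic genes to 511, 1149 and 838 FPKM and to 1259.6, 784 and 1095.1 FPKM. Both sums overlapped between the genotypes. Without Gm31629-/- mouse 1, 9 members were higher and 2 lower, and without Gm31629-/- mouse 3, which held the acinar transcripts, 6 were higher and 1 lower. Over all 14657 tested genes, 4106 were higher and 1976 lower without mouse 1, and 4219 and 1674 without mouse 3. With all mice these counts were 4238 and 2138.

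**Figure D3:**
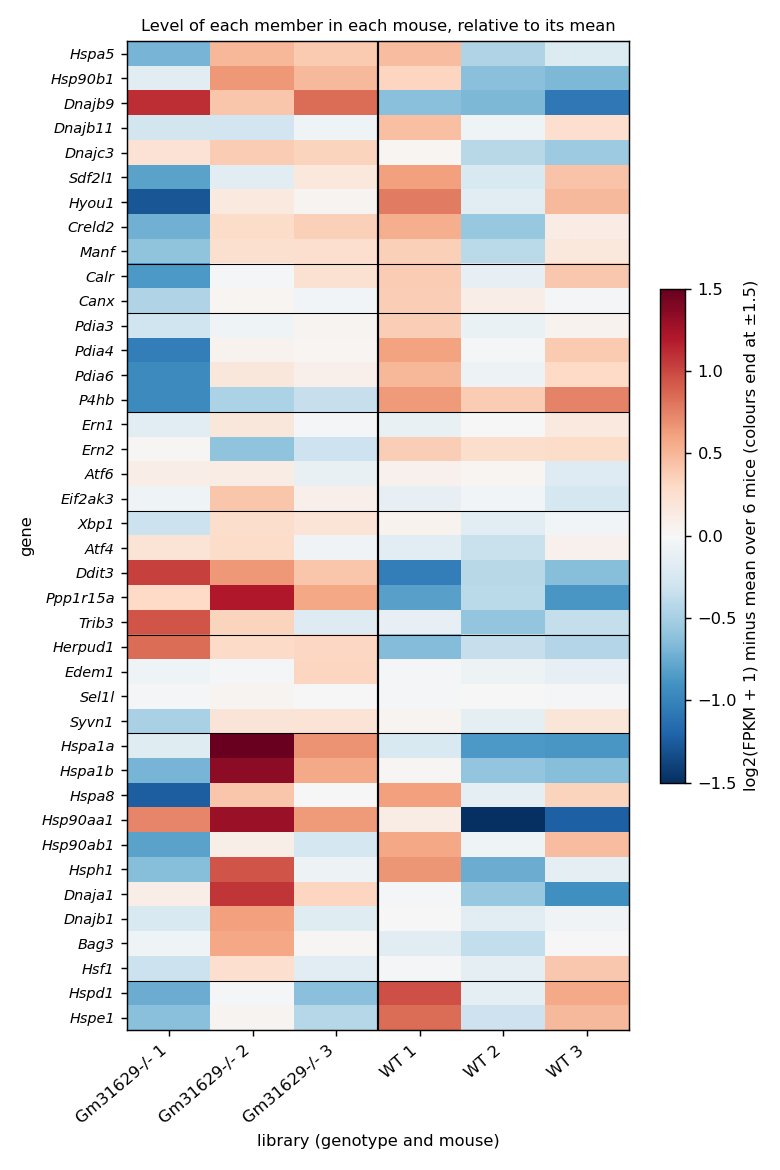
Level of each of the 40 genes in each library as log2(FPKM + 1) minus its mean over the 6 mice, red above and blue below that mean, with horizontal lines between roles and a vertical line between genotypes. Gm31629-/- mouse 1 is the lowest of its group for 31 genes, while Dnajb9, Ddit3, Ppp1r15a and Herpud1 are above the mean in all 3 Gm31629-/- mice and below it in all 3 WT mice.

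Among the ER chaperones of the Hsp70 and Hsp90 families and their cofactors, 2 of 9 rose and 0 fell by limma (2 and 1 at an unadjusted p under 0.05, also by limma with voom), against 28.9% higher and 14.6% lower over all tested genes, with a median log2 fold change of −0.06. Hspa5, which encodes BiP, measured 76.7, 178 and 165 FPKM in Gm31629-/- mice 1 to 3 and 172, 90.8 and 108 FPKM in WT mice 1 to 3. The groups overlapped throughout, with a log2 fold change of 0.14 ± 0.37 (SE, n = 3 per group) and an adjusted p of 0.790. Its 95% interval of −0.74 to 1.01 holds changes of either sign, so no direction can be given for this central UPR target.

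Dnajb9 (chr12:44205559-44210326) encodes ERdj4, a J-domain cofactor of BiP that also restrains IRE1. It measured 41.3, 25.1 and 34.1 FPKM in Gm31629-/- mice and 11.7, 11.3 and 8.33 FPKM in WT mice, and the groups stood well apart. Dnajb9 had a log2 fold change of 1.58 ± 0.22 (SE), a 3.22-fold ratio of the means, with a limma adjusted p of 0.00184. The call held in all 6 fits that leave out a mouse.

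Dnajc3 (chr14:118937976-118981697) encodes p58IPK, a lumenal J-domain cofactor. Its values were 22.8, 25.7 and 24.7 FPKM against 19.8, 14.3 and 13 FPKM, which did not overlap, but WT mouse 1 came close to the knockout group. With a log2 fold change of 0.63 ± 0.18 (SE), it had an adjusted p of 0.0275. The call was lost without Gm31629-/- mouse 2 (adjusted p = 0.0628), Gm31629-/- mouse 3 (0.0663), WT mouse 2 (0.0861) or WT mouse 3 (0.105), and also by median ratio (0.141).

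Hsp90b1, the gene of the ER Hsp90 protein Grp94, measured 32.6, 57.5 and 51.4 FPKM against 45.9, 23.3 and 22.4 FPKM, with WT mouse 1 inside the knockout range. Its log2 fold change of 0.65 ± 0.33 (SE) did not pass (adjusted p = 0.143), but did without WT mouse 1 (0.0398) and with epithelial scaling (1.34, 0.0102). Dnajb11, whose product ERdj3 binds unfolded chains with BiP, measured 42.4, 42.0 and 49.3 FPKM against 70.9, 49.1 and 61.7 FPKM. Its log2 fold change was −0.42 ± 0.17 (SE), which did not pass (0.0835) but did without WT mouse 2 (0.0473) and by median ratio (−0.68, adjusted p = 0.0242).

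The remaining 4 of these cofactors did not pass the test and overlapped between genotypes. The BiP nucleotide exchange factor gene Hyou1 had a log2 fold change of −0.73 ± 0.42 (SE), from 8.49, 24.6 and 22.9 FPKM against 38.8, 19.6 and 31.4 FPKM. Sdf2l1, which partners ERdj3, was at −0.55 ± 0.31. Creld2 and Manf, both secreted ER stress products, were at −0.06 ± 0.37 and −0.08 ± 0.30. The lectin chaperones calreticulin (Calr, −0.44 ± 0.31) and calnexin (Canx, −0.30 ± 0.18) did not pass either, with adjusted p of 0.274 and 0.222.

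Thus the 8 genes with the ER stress response element shown above held 1 that rose, Dnajc3, against 28.9% of all tested genes. The other 7 did not pass the test (Hspa5, Hsp90b1, Creld2, Calr, Canx, Pdia6 and Syvn1), with log2 fold changes from −0.48 for Pdia6 to 0.65 for Hsp90b1. Herpud1, which held the shorter form, rose. Dnajb9, Ddit3 and Ppp1r15a also rose, and their windows held neither form.

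Protein disulfide isomerases form and rearrange disulfide bonds in the ER. All 4 had log2 fold changes below 0 as deposited and by median ratio (median −0.56 as deposited), whereas with epithelial scaling 3 of the 4 lay above 0. Of all tested genes, 6173 of 14657 lay below 0 as deposited. On the deposited values 1 of the 4 passed the test as lower, against 14.6% of all tested genes. P4hb (chr11:120560298-120573253), the founding isomerase and also the beta subunit of collagen prolyl 4-hydroxylase, measured 147, 205 and 223 FPKM in Gm31629-/- mice and 443, 372 and 479 FPKM in WT mice. The groups stood far apart, with a log2 fold change of −1.18 ± 0.21 (SE), a WT level 2.25 times that of the knockout and a limma adjusted p of 0.00436, and the call held in all 6 fits that leave out a mouse.

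Pdia4 measured 22.1, 48.1 and 47.4 FPKM against 71.5, 45.5 and 61.1 FPKM and Pdia6 26.9, 59.4 and 55.5 FPKM against 74.9, 49.9 and 65.1 FPKM, both with the low value of Gm31629-/- mouse 1. Neither passed the test (log2 fold changes −0.64 ± 0.32 and −0.48 ± 0.32, adjusted p of 0.146 and 0.257). Pdia3, the isomerase that works with calreticulin and calnexin, was at −0.22 ± 0.18 with an adjusted p of 0.358. The 4 isomerases summed to 459 ± 93.0 FPKM (SD, n = 3) in Gm31629-/- mice and 765.5 ± 103 FPKM in WT mice. Most of that gap came from P4hb alone, at 192 ± 39.9 FPKM in Gm31629-/- mice and 431 ± 54.4 FPKM in WT mice.

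Of the 4 stress sensors, 1 fell, against 14.6% of all tested genes. Ern2 (chr7:122169893-122186207) encodes IRE1 beta, the sensor of goblet cells and other mucosal epithelium. It measured 21, 13.3 and 16.6 FPKM in Gm31629-/- mice and 27.1, 25.1 and 25.3 FPKM in WT mice, without overlap, and the WT values lay close together. Ern2 had a log2 fold change of −0.60 ± 0.18 (SE) and an adjusted p of 0.0328.

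The Ern2 call was lost without Gm31629-/- mouse 2 (adjusted p = 0.0643), Gm31629-/- mouse 3 (0.0755), WT mouse 1 (0.101), WT mouse 2 (0.0763) or WT mouse 3 (0.0946), and held without Gm31629-/- mouse 1 (0.0107). Its broadly expressed paralog Ern1, IRE1 alpha, measured 6.95, 9.03 and 7.75 FPKM against 7.26, 7.88 and 8.88 FPKM, with a log2 fold change of −0.02 ± 0.16 and a 95% interval of −0.39 to 0.35. With epithelial scaling Ern1 was higher instead (0.61, adjusted p = 0.0406). Atf6 (0.07 ± 0.15) and the PERK gene Eif2ak3 (0.28 ± 0.17) did not pass, with adjusted p of 0.747 and 0.221, except with epithelial scaling (0.70 and 0.91, adjusted p of 0.0167 and 0.00975). The median of all tested genes with that scaling was 0.69, above the value of Ern1.

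The transcription factors and feedback genes of the UPR lay above 0 for all 5 members as deposited, with a median of 0.72. Of all tested genes, 8484 of 14657 lay above 0. Of the 5 members, 2 passed the test as higher, against 28.9% of all tested genes. By median ratio Xbp1 lay below 0 (−0.16). Ddit3 (chr10:127290774-127296288) encodes CHOP, a factor linked to cell death after prolonged ER stress. It measured 20.1, 15.3 and 12.8 FPKM in Gm31629-/- mice and 4.04, 6.81 and 5.68 FPKM in WT mice, with no overlap. Ddit3 had a log2 fold change of 1.39 ± 0.23 (SE), a 2.92-fold ratio of means, and a limma adjusted p of 0.00349. Its exons overlap those of Mars on the opposite strand over 3.97% of their length, and the library kit does not mark strand.

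Ppp1r15a (chr7:45522916-45526268) encodes GADD34, which recruits the phosphatase that restores translation after PERK signalling and is itself a target of CHOP. It measured 13.9, 26.8 and 17.1 FPKM against 5.83, 8.11 and 5.56 FPKM, again without overlap. Ppp1r15a had a log2 fold change of 1.4 ± 0.26 (SE), a 2.96-fold ratio, with a limma adjusted p of 0.00558. Both this call and that of Ddit3 held in all 6 fits that leave out a mouse.

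Atf4, the factor upstream of both, measured 118, 124 and 98.5 FPKM in Gm31629-/- mice and 91.8, 81.0 and 107 FPKM in WT mice. The groups overlapped through WT mouse 3, and the log2 fold change of 0.28 ± 0.17 (SE) did not pass (adjusted p = 0.202). Xbp1, whose unspliced and spliced forms are counted together here, measured 79.0, 119 and 115 FPKM against 103, 88.5 and 96.8 FPKM, with a log2 fold change of 0.10 ± 0.19 and an adjusted p of 0.697. With epithelial scaling both passed as higher (Atf4 0.99, adjusted p = 0.0062, and Xbp1 0.80, 0.0179). The median of all tested genes was then 0.69. Trib3, a pseudokinase induced by CHOP, was the least abundant member, at 2.43, 1.25 and 0.564 FPKM (95, 49 and 22 fragments) against 0.636, 0.183 and 0.401 FPKM (25, 7 and 16 fragments). Its log2 fold change of 0.72 ± 0.30 did not pass (0.0876), but did without Gm31629-/- mouse 3 (0.0245) and with epithelial scaling (1.01, 0.0251). At such low levels its value moved with the pseudocount, to 1.48 with 0.1 (adjusted p = 0.0737), and to 1.69 by voom (0.0888).

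ER-associated degradation is the route that returns misfolded proteins to the cytosol for destruction. Of its 4 genes, 1 rose, against 28.9% of all tested genes. Herpud1 (chr8:94386438-94395377) encodes Herp, a membrane protein that helps assemble the degradation complex. It measured 163, 111 and 113 FPKM in Gm31629-/- mice and 57.4, 71.3 and 66.7 FPKM in WT mice, without overlap. The log2 fold change was 0.96 ± 0.19 (SE), a 1.98-fold ratio, with a limma adjusted p of 0.00738, and the call held in all 6 fits that leave out a mouse.

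The other degradation genes did not pass the test on the deposited values. Sel1l, the adaptor of the HRD1 ligase, measured 18.2, 18.9 and 18.5 FPKM against 18.2, 18.4 and 18.1 FPKM, a log2 fold change of 0.02 ± 0.12 with a 95% interval of −0.26 to 0.30 (0.69, adjusted p = 0.00956, with epithelial scaling). Syvn1, the ligase itself, was at −0.06 ± 0.22 and Edem1, which leads misfolded glycoproteins to it, at 0.15 ± 0.15, with adjusted p of 0.853 and 0.435. With epithelial scaling Edem1 was at 0.84 (adjusted p = 0.00416) and Syvn1 at 0.62 (0.07). The median of all tested genes with that scaling was itself 0.69, close to the value of Sel1l.

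**Figure D4:**
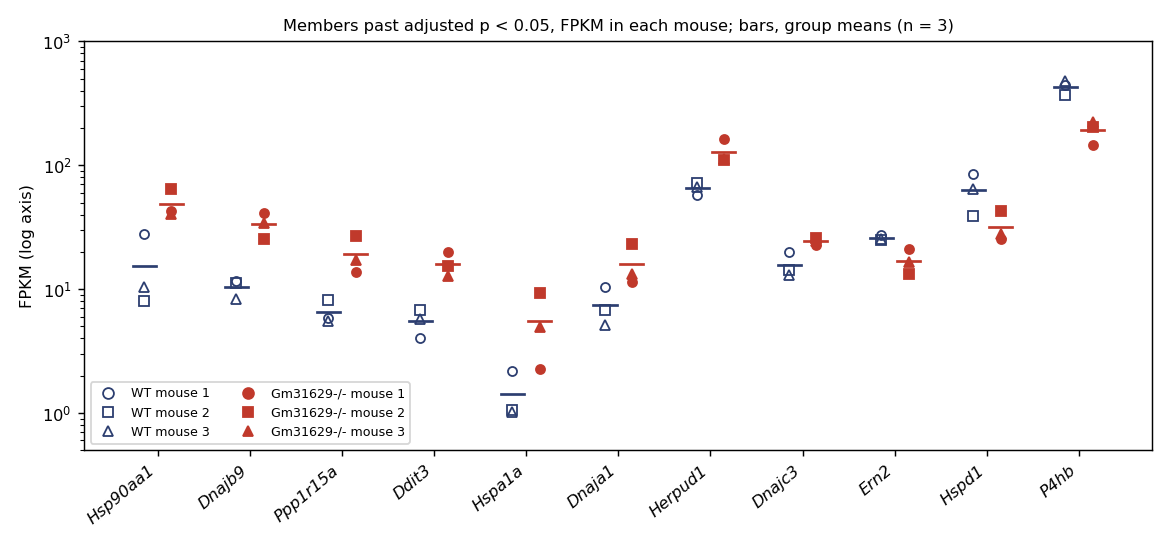
FPKM (log axis) of the 11 genes past an adjusted p under 0.05 in each mouse, with WT mice as open blue and Gm31629-/- mice as filled red symbols, one shape per mouse number, and bars at the group means (n = 3). The groups do not overlap for 10 genes, and for Hspd1 the WT mouse 2 value of 39.1 FPKM lies below the Gm31629-/- mouse 2 value of 42.6 FPKM.

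In the cytosol, 3 of 10 genes rose and 0 fell by limma (3 and 0 at an unadjusted p under 0.05, and 3 and 1 by limma with voom), a share close to the 28.9% of all tested genes that were higher. Hsp90aa1 (chr12:110690605-110702728), the inducible Hsp90, had the largest log2 fold change of the 40 members on the log2(FPKM + 1) scale with all mice, whereas by the ratio of means Hspa1a (3.90), Trib3 (3.48) and Dnajb9 (3.22) exceeded it. It measured 43.0, 63.9 and 40.4 FPKM in Gm31629-/- mice and 27.6, 8.05 and 10.4 FPKM in WT mice, without overlap, although WT mouse 1 was well above the other WT mice. The log2 fold change was 1.78 ± 0.42 (SE), a 3.2-fold ratio, with a limma adjusted p of 0.0143, and the call was lost without WT mouse 3 (0.0608).

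Hsp90ab1, its constitutive paralog and the most abundant member by mean FPKM (408.0), measured 223, 414 and 323 FPKM in Gm31629-/- mice and 581, 371 and 536 FPKM in WT mice. The groups overlapped, and the log2 fold change of −0.65 ± 0.28 (SE) did not pass (adjusted p = 0.0958), but did without Gm31629-/- mouse 2 (0.0405) and by median ratio (−0.91, 0.0367). The inducible and the constitutive Hsp90 gene thus lay on opposite sides of 0 as deposited and by median ratio, while with epithelial scaling Hsp90ab1 was at 0.06.

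Hspa1a (chr17:34969190-34972156), an inducible Hsp70, measured 2.27, 9.35 and 4.92 FPKM in Gm31629-/- mice and 2.17, 1.05 and 1.02 FPKM in WT mice. The groups did not overlap, but Gm31629-/- mouse 1 (124 fragments) and WT mouse 1 (119 fragments) were nearly equal. Hspa1a had a log2 fold change of 1.31 ± 0.42 (SE) with an adjusted p of 0.0386. The call held without Gm31629-/- mouse 1 (0.00758) and was lost without Gm31629-/- mouse 2 (0.0737), Gm31629-/- mouse 3 (0.0955), WT mouse 1 (0.0544), WT mouse 2 (0.108) or WT mouse 3 (0.126), by median ratio (0.0579) and with no filter (0.0781).

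Hspa1b, the neighbouring copy with nearly the same sequence, measured 8.69, 39.1 and 22.4 FPKM against 14.9, 9.49 and 9.11 FPKM, with Gm31629-/- mouse 1 below all WT mice. The difference of 0.81 ± 0.49 on the log2 scale (SE) did not pass (adjusted p = 0.214), and passed without Gm31629-/- mouse 1 (1.36, 0.0147) and with epithelial scaling (1.47, 0.0366). Reads of both copies may have been assigned to either, and 19.0% of the exon bases of Hspa1a also belong to a gene on the opposite strand, so the split between them is uncertain. The constitutive Hsp70 gene Hspa8 measured 148, 469 and 352 FPKM against 536, 318 and 443 FPKM, with a log2 fold change of −0.54 ± 0.43 and an adjusted p of 0.333.

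Dnaja1 (chr4:40722150-40737149), a J-domain partner of cytosolic Hsp70, measured 11.3, 23.1 and 13.3 FPKM in Gm31629-/- mice and 10.4, 6.72 and 5.09 FPKM in WT mice, which came close but did not overlap. Dnaja1 had a log2 fold change of 1.00 ± 0.32 (SE) with an adjusted p of 0.0394. The call was lost without Gm31629-/- mouse 2 (0.0876), Gm31629-/- mouse 3 (0.0719), WT mouse 2 (0.101) or WT mouse 3 (0.137), by median ratio (0.0862) and with no filter (0.0733). Of its exon bases, 7.05% also belong to Smu1 on the opposite strand.

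The other cytosolic members did not pass the test, except Dnajb1 (0.83, adjusted p = 0.0413) and Bag3 (1.04, 0.011) with epithelial scaling. That scaling put the median of all tested genes at 0.69. As deposited, Dnajb1, the J-domain partner most used as a heat shock marker, was at 0.14 ± 0.24 and Bag3, a nucleotide exchange factor for Hsp70, at 0.35 ± 0.21. The exchange factor gene Hsph1 (Hsp110) was at 0.15 ± 0.48, with values of 4.31, 14.9 and 6.86 FPKM against 12.1, 3.94 and 6.55 FPKM that overlapped. Hsf1, the heat shock factor, was at −0.16 ± 0.21. Their adjusted p ranged from 0.202 to 0.821.

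The mitochondrial chaperonin is a cage of Hsp60 (Hspd1) with a lid of Hsp10 (Hspe1), and the genes share the promoter shown above. Hspd1 (chr1:55077835-55088243) measured 25.4, 42.6 and 27.6 FPKM in Gm31629-/- mice and 85.8, 39.1 and 64.8 FPKM in WT mice, overlapping through mouse 2 of each genotype. Its log2 fold change of −0.93 ± 0.32 (SE) passed narrowly (adjusted p = 0.0491), and the call was lost without Gm31629-/- mouse 1 (0.119), Gm31629-/- mouse 3 (0.132), WT mouse 1 (0.146) or WT mouse 3 (0.143). It was also lost on the TPM scale (0.0519), with a mean of at least 5 FPKM (0.0556), without the mean-variance trend (0.0522) and with no filter on low values (0.0887).

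Hspe1 ran in the same order over the 6 mice, at 16.3, 26.5 and 18.8 FPKM against 46.5, 20.4 and 36.2 FPKM. The 2 genes share 112 exon bases on opposite strands (7.6% of those of Hspe1 and 4.24% of those of Hspd1). The library kit does not mark strand, so their values are not fully separate. Its log2 fold change of −0.67 ± 0.32 (SE) did not pass (adjusted p = 0.125), but did without WT mouse 2 (0.0294) and by median ratio (−0.92, 0.0481). With epithelial scaling Hspd1 was at −0.24 and Hspe1 at 0.01.

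Ratios of members within a library do not depend on how the library is scaled. The 7 given here are a description, since they were chosen after the values were seen. Their denominators were not constant. Hspa8 ran from 148 to 536 FPKM and Hsp90ab1 from 223 to 581 FPKM over the 6 mice. Both had log2 fold changes below 0 that did not pass the test (−0.54 and −0.65), so a higher ratio can come from either gene. Hsp90aa1 to Hsp90ab1 was 0.193, 0.154 and 0.125 in Gm31629-/- mice and 0.0475, 0.0217 and 0.0193 in WT mice. Hspa1a to Hspa8 was 0.0154, 0.0199 and 0.0140 against 0.00404, 0.00329 and 0.00231, and Hspa1b to Hspa8 was 0.0588, 0.0833 and 0.0635 against 0.0278, 0.0298 and 0.0206. For all 3, Gm31629-/- mouse 1, which was low for most cytosolic genes, lay with its group.

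Ddit3 to Atf4 was 0.170, 0.123 and 0.130 in Gm31629-/- mice and 0.0440, 0.0841 and 0.0530 in WT mice, and Ppp1r15a to Atf4 was 0.117, 0.216 and 0.173 against 0.0636, 0.1 and 0.0519. P4hb to Pdia3 was lower, at 0.931, 1.11 and 1.11 against 1.76, 2.05 and 2.38. Hsp90b1 to Hspa5 was 0.426, 0.324 and 0.312 against 0.266, 0.257 and 0.207. These 7 ratios did not overlap between the genotypes, nor did Dnajb9 to Hspa5 (0.142 to 0.539 against 0.0679 to 0.124). Herpud1 to Hspa5 and Ern2 to Ern1 did overlap, which makes 10 ratios computed. Of all single genes tested, 36.3% did not overlap as higher and 21.5% as lower. The share among other pairs of genes was not computed, so the separation cannot be called particular to these pairs.

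**Figure D5:**
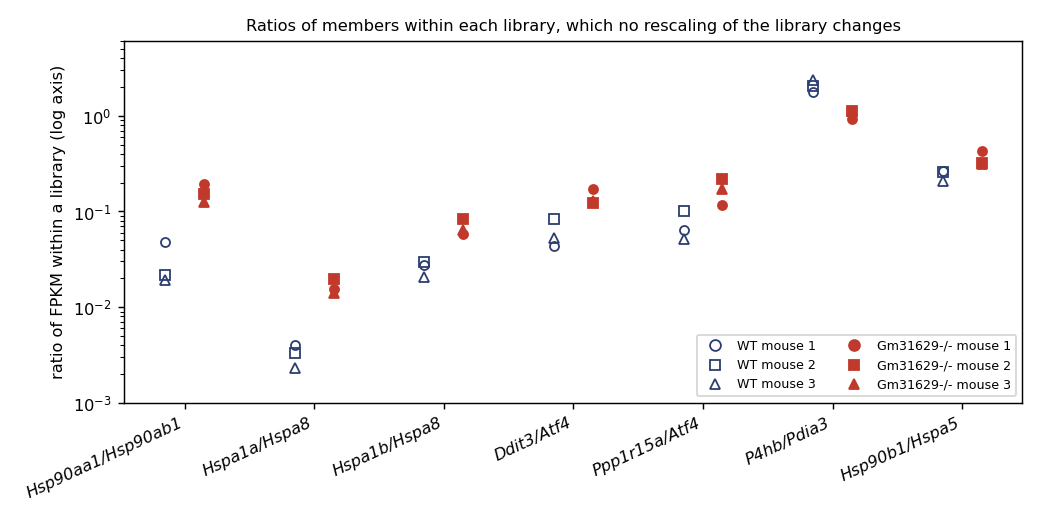
Ratio of the FPKM of 2 genes within a library (log axis) for 7 pairs, with WT mice as open blue and Gm31629-/- mice as filled red symbols. The 2 groups do not overlap in any of the 7 pairs, which were chosen after the values were seen. The Hsp90aa1 to Hsp90ab1 ratio runs from 0.125 to 0.193 in Gm31629-/- mice and from 0.0193 to 0.0475 in WT mice.

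The wider ER machinery, listed by role rather than by how it moved, showed calls in both directions, to be read against 28.9% of all genes higher, 14.6% lower and a median of 0.15. Of 32 genes of the translocon and of N-glycosylation, which thread and tag new secretory proteins, 4 rose and 11 fell (median −0.19). Sec62, a translocon subunit that also serves ER turnover, rose from 7.36 ± 1.58 to 18.6 ± 3.15 FPKM (SD, n = 3; log2 fold change 1.23, adjusted p = 0.0035), and Tusc3, an oxidoreductase subunit of the glycosylating complex, rose by 0.71 on the log2 scale. Rpn1 of the same complex fell from 90.2 ± 16.9 to 41.5 ± 8.37 FPKM (−1.10, adjusted p = 0.00651) and the channel gene Sec61a1 from 44.5 ± 6.79 to 20.9 ± 3.97 FPKM (−1.06, adjusted p = 0.00519).

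Among 24 tested genes of other thiol oxidoreductases and folding enzymes, 9 rose and 7 fell (median 0.02). The risers with the largest log2 fold changes were the prolyl isomerases Fkbp10, which assists collagen folding (10.8 ± 3.95 FPKM, up from 0.731 ± 0.325 FPKM, 2.73, adjusted p = 0.000632), and Fkbp7 (2.07). The largest falls were in further disulfide isomerases, Pdia5 from 42.4 ± 5.22 to 12.7 ± 2.1 FPKM (−1.66, adjusted p = 0.00063) and Txndc5 from 104 ± 12.9 to 43.6 ± 2.64 FPKM (−1.23, adjusted p = 0.00109). These came beside P4hb, and unlike P4hb both still passed as lower with epithelial scaling (−0.98 and −0.53, adjusted p of 0.00375 and 0.0321).

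Of 26 further degradation genes, 5 rose and 4 fell (median −0.02). Derl3, a channel component found mainly in secretory cells, rose from 0.472 ± 0.156 to 4.55 ± 1.49 FPKM (1.88, adjusted p = 0.00123) and Fam8a1, a cofactor of the HRD1 complex, by 1.37 on the log2 scale. The ligase gene Rnf5 (−0.74) and the mannosidase gene Man1b1 (−0.63) fell. Of 20 other ER stress regulators, 4 rose and 3 fell (median 0.03). Trib2 (1.90) and Creb3l2 (1.57) rose, whereas Creb3l1, an ER-bound factor of the ATF6 type, fell from 98.4 ± 13.5 to 35 ± 9.59 FPKM (−1.49, adjusted p = 0.00212) and its relative Creb3l4 fell by 1.69 on the log2 scale.

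Targets of ATF4 and CHOP did not move as a block. Of 27 tested, 7 rose and 8 fell, with a median of −0.33. Of all tested genes, 28.9% were higher and 14.6% lower, with a median of 0.15. Cebpb, a partner of CHOP that is also induced in inflammation, rose from 0.961 ± 0.171 to 17.5 ± 10.9 FPKM (3.00, adjusted p = 0.00365), and the stress cytokine gene Gdf15 rose by 1.67. Cth, an enzyme of cysteine synthesis (−1.90), and Aldh18a1, an enzyme of proline synthesis (−1.52), fell.

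Outside the ER, 13 of 36 tested further cytosolic chaperones and cochaperones rose and 1 fell (median 0.36). This and the counts that follow are to be read against 28.9% of all genes higher, 14.6% lower and a median of 0.15. Hspa2, an Hsp70 family member, rose from 0.560 ± 0.219 to 25.5 ± 16.3 FPKM (3.90, adjusted p = 0.000867) and Dnajb5 by 1.87, and the Hsp90 cochaperone gene Fkbp4 fell from 120 ± 35.2 to 37.7 ± 13.7 FPKM (−1.68, adjusted p = 0.00802). Of 15 tested genes of the CCT chaperonin and prefoldin, which fold actin and tubulin, 2 rose (Vbp1 by 1.57 and Pdcl3 by 1.10) and 5 fell, among them Cct3 (−0.90) and Tcp1 (−0.73), with a median of −0.21. Of 14 other mitochondrial chaperones and proteases, 1 rose (Yme1l1, 1.13) and 6 fell, with a median of −0.50. The mitochondrial Hsp90 gene Trap1 fell from 42.6 ± 8.61 to 17.3 ± 4.48 FPKM (−1.26, adjusted p = 0.00535) and Dnaja3, the mitochondrial J-domain partner, fell by 1.25 on the log2 scale.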

How the data were processed

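RNA-Seq libraries were made from the distal colon of 3 Gm31629-/- and 3 WT mice, grouped by the genotype in the labels. The authors deposited FPKM values, 1 column per mouse, and the submitters' processing notes name HISAT2 2.1.0, HTSeq 0.6.0 and GRCm38. The annotation is not given in the sources used here. GENCODE M21 gave symbols and exon lengths and matched 27488 of 27546 identifiers. Whole fragments were recovered from the steps of low FPKM values (96.3% to 97.2% of values up to 20 fragments lay within 0.1 of a whole number), giving 18006000 to 18795100 fragments per library, a total that the fragments summed over listed genes exceeded. Precision rests on 3 libraries per group.

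The genotypes were compared by moderated linear models (R 4.3.3, limma 3.58.1, mean-variance trend fitted) of log2(FPKM + 1). The 14657 genes averaging 0.5 FPKM or more entered, with Benjamini-Hochberg adjustment over all of them. Fold changes are on the log2(FPKM + 1) scale, which understates changes of low genes. A stricter call also required a log2 fold change above 1 or below −1. The study used DEGseq, which needs counts. An exact permutation test of 3 against 3 mice cannot go below 0.10 and was not used. Within each genotype the libraries' counts varied beyond sampling noise, and no library was treated as a repeat. For pairs of libraries of a genotype, the chi-square averaged over genes was 29.1 to 131, a mean that abundant genes can dominate. The script was tested on simulated data.

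The 40 members and all lists were chosen with earlier results of these data known. All members are named, and of each other list up to 2 tested genes per direction with the largest log2 fold change, plus the most abundant marker. Of the wider lists, Pdia2 was not matched, and genes under the filter were not tested. Alternatives were a mean of at least 5 FPKM, no filter, a pseudocount of 0.1, TPM scale, median ratio, scaling to 15 epithelial markers, no mean-variance trend, a block for the replicate number, leaving out each mouse, voom on recovered fragments and limma treat. Figures were drawn with matplotlib 3.10.9.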

Additional observations from a re-analysis of the deposited data

How the results depend on the processing

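Of the 40 genes, 8 were higher and 3 lower in Gm31629-/- mice. By median ratio 5 were higher and 6 lower, with 2 called lower with the fold threshold and an ER median of −0.24. With epithelial scaling 20 were higher and 0 lower by limma (22 and 0 at an unadjusted p under 0.05), 12 and 0 were called with the fold threshold, and the medians were 0.66 (ER) and 0.94 (cytosolic). Over all 14657 tested genes, 4238 were higher and 2138 lower as deposited, 3613 and 3634 by median ratio, and 7814 and 414 with epithelial scaling. Under that scaling Ern1 was at 0.61 (adjusted p = 0.0406) and Ern2 at 0.077 (0.738), and 16 of the 19 members below 0 on the deposited values, these 2 among them, lay above it. The median over all tested genes also moved under that scaling, from 0.15 to 0.69, so these turns are not particular to the members. When limma's treat function tested for changes beyond 1 log2 unit, 0 were called higher and 0 lower (1 and 0 at an unadjusted p under 0.05), where the ordinary limma test with the fold threshold called 5 and 1. Leaving out each mouse gave 4 to 9 higher and 1 to 4 lower, 3 to 7 and 1 to 2 called with the fold threshold, and medians of −0.10 to 0.19 (ER) and 0.01 to 0.49 (cytosolic). The lowest count of higher genes, 4, came without WT mouse 3. Of the fits that leave out a mouse, that one also had the fewest calls over all genes, 2793 higher and 981 lower. With a pseudocount of 0.1 and with voom on recovered fragments, all 40 genes kept their direction and side of the threshold. Trib3 rests on only 7 to 95 fragments per library.

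The expression values gave no sign that the replicate numbers pair the mice, which does not show how the mice were numbered. Deviations of same-numbered mice from their group means correlated at 0.04, −0.11 and 0.01 over genes, and 0 of 3 WT mice correlated best with the Gm31629-/- mouse of the same number. With the replicate number as a block, 5 members were higher and 2 lower, and over all tested genes 3875 were higher and 1514 lower.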
